A study of Mus musculus with 2 samples.

Results

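Histone mRNAs and the mRNA of their stem-loop binding protein were measured in 2 cultures of the mouse fibroblast line NIH3T3, which is immortalised and derived from embryos. The members were all probe sets annotated to a single gene whose symbol carries a core or linker histone prefix, together with Slbp. They numbered 27 of the 45101 probe sets on the array and 18 of the 18194 genes that have at least 1 such probe set. By symbol, 10 genes belong to the replication-dependent histone clusters, 7 are histone variants encoded outside the clusters, and Slbp is the remaining gene. One culture was infected with a hairpin retrovirus that targets CCR4b (CNOT6L), labelled CCR4b RNAi. The other was infected with a control hairpin virus, labelled Control RNAi. Both were grown in DMEM with fetal bovine serum, and total RNA was hybridised to 1 Affymetrix Mouse Genome array per group. Neither the hairpin sequences, the duration of the depletion nor the number of dishes behind each array is given in the labels. Replicate error is therefore unknown for all values, no test could be made, and "higher" and "lower" compare these particular arrays.

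Replication-dependent histone genes lie in clusters and are transcribed in S phase, when new DNA has to be packed into nucleosomes. Their mRNAs are the animal mRNAs that normally end in a conserved stem-loop in place of a poly(A) tail. SLBP binds that stem-loop and is needed for processing, translation and turnover of these mRNAs. Variant histones such as H2A.Z and H3.3 are made from genes outside the clusters with ordinary polyadenylated mRNAs, and H3.3 is also laid down outside S phase. CCR4b is a deadenylase, a subunit of the CCR4-NOT complex that shortens poly(A) tails. The labels name the standard Affymetrix labelling protocol, which in that generation primed cDNA with oligo(dT). Such priming may read mRNAs without a tail only in part, and how much of a clustered gene's mRNA each signal covers was not tested.

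The deposited signals are in arbitrary linear units. Signals were raised to a floor of 8.07 units, the median of all values on both arrays, and a gene was counted as measured when its brightest probe set reached the floor on at least 1 array. Of the 18 member genes, 12 were measured, 8 of them on both arrays. Among all 11915 measured genes the log2 ratio of CCR4b RNAi over control RNAi had a median of -0.070 and a robust SD of 0.49. The robust SD between probe sets that read the same gene was 0.30 per probe set. The brightest probe set of Cnot6l, the targeted gene, read 43.0 units in the CCR4b RNAi culture and 102 units in the control culture. Of 8 fibroblast markers, 7 were measured, with Vim at 3655 units (CCR4b RNAi) and 4022 units (control), whereas Fap was below the floor on both arrays. Col1a1 was 1.52-fold higher (1429 units after CCR4b RNAi and 942 units in the control) and Thy1 1.70-fold lower (130.4 units after CCR4b RNAi and 221 units in the control). Of 8 markers of epithelial, blood and endothelial cells, 3 reached the floor. Epcam read 29.5 units (CCR4b RNAi) and 19.4 units (control) on a probe set whose identifier marks possible hybridisation to more than 1 transcript. Its other probe set was below the floor on both arrays, at 0.921 units (CCR4b RNAi) and 2.68 units (control). Cd68 read 9.42 units (CCR4b RNAi) and 24.0 units (control), and Csf1r 17.5 units (CCR4b RNAi) and 18.4 units (control). Ptprc, Pecam1, Cdh1, Krt8 and Cdh5 did not reach the floor.

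Slbp, the stem-loop binding protein, had a lower reading after CCR4b RNAi on each of its probe sets that reached the floor. The brightest one read 176 units after CCR4b RNAi and 375 units in the control, 2.14-fold lower, with a log2 ratio of -1.10. Genes of similar signal had a robust SD of 0.41, and 3.53% of them had a ratio as low or lower. The second probe set read 11.5 units after CCR4b RNAi and 17.6 units in the control (log2 ratio -0.61). The dimmest stayed below the floor on both arrays, at 2.31 units (CCR4b RNAi) and 3.80 units (control). In bulk RNA, fewer cells with Slbp mRNA and less of it per cell cannot be told apart, and the same holds for every member below.

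Among the members above the floor on both arrays, H2az1 showed the largest difference. It encodes H2A.Z.1, a variant of H2A found at promoters and enhancers. Its brighter probe set read 485 units after CCR4b RNAi and 1219 units in the control, 2.51-fold lower, with a log2 ratio of -1.33. The second read 350.2 units after CCR4b RNAi and 816 units in the control, 2.33-fold lower. Genes of similar signal had a robust SD of 0.36 around a median of -0.17, and 0.839% of them had a ratio as low or lower. Both probe sets have identifiers that mark possible hybridisation to more than 1 transcript. A further pair of probe sets, annotated to H2az1 and to 1 other locus each, read 1383 and 178 units after CCR4b RNAi, against 2752 and 389 units in the control. All 4 were thus lower, with log2 ratios between -1.33 and -0.99.

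H2az2 encodes the close paralogue H2A.Z.2 and had a smaller ratio. Its bright probe set read 783 units after CCR4b RNAi and 1008 units in the control, with a log2 ratio of -0.37. The dim one read 19.4 units after CCR4b RNAi and 23.5 units in the control, with a log2 ratio of -0.28. Relative to the median of genes with similar signal, the bright set differed by -0.55 robust SDs, inside their spread. The direction was the same on both probe sets and under all 8 processing alternatives.

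The 3 promoters below belong to the members at least 1.5-fold different with both arrays above the floor, and their activity was not measured. They are the 250 bases upstream of the annotated start, 5′ to 3′ on the gene's strand, from RefSeq on GRCm38.p6. Capitals mark CCAAT boxes on either strand (the letters CCAAT, read on both strands), the binding motif of NF-Y, a factor common at cell-cycle promoters. The Slbp window is chr5:33652575-33652824 (minus strand), that of H2az1 chr3:137864237-137864486 (plus strand) and that of H2ac19 chr3:96240375-96240624 (minus strand).
Slbp: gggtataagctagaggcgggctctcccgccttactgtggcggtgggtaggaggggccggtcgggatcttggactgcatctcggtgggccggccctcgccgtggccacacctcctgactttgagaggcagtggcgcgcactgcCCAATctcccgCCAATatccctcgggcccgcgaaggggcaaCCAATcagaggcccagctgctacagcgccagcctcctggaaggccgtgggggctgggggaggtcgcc
H2az1: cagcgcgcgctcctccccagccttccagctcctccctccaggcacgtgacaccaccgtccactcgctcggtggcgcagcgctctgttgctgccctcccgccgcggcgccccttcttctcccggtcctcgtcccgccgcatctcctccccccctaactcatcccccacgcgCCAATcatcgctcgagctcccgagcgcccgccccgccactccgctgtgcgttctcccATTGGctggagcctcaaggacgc
H2ac19: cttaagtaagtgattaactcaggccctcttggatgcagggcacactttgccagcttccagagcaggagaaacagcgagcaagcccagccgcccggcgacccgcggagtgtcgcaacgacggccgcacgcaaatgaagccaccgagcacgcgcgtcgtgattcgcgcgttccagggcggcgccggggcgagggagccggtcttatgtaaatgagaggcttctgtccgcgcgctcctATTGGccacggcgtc
The Slbp window held 3 CCAAT boxes, that of H2az1 held 2 and that of H2ac19 held 1, where 33.8% of all 32851 RefSeq promoters hold at least 1. Other motifs were searched on both strands and not found in these windows. They were the TATA box, the octamer and the cell-cycle homology region, spelled out with the family below, and an E2F site, searched as TTTGGCGC and also as TTTCGCGC, as TTTCCCGC and as TTTGCCGC. Such letters are a description and show no binding.

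**Figure D1:**
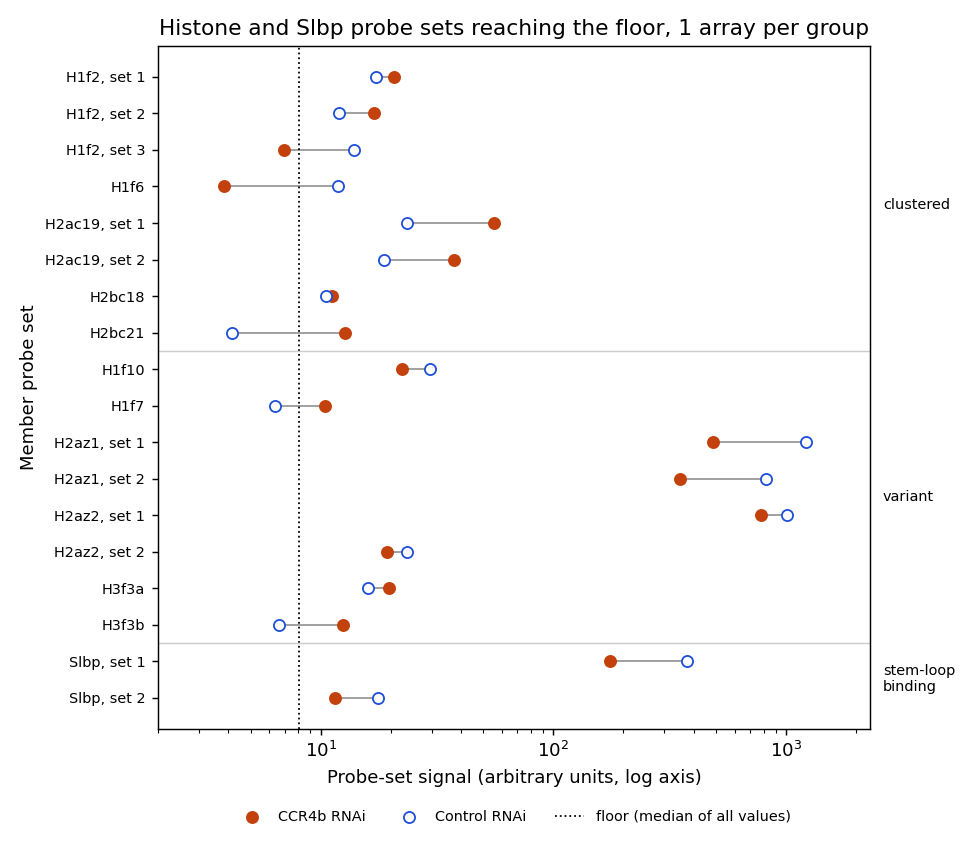
Signals of the member probe sets that reached the floor (arbitrary units, log axis), filled points for the CCR4b RNAi array and open points for the control array, with the floor of 8.07 units dotted and the probe sets of a gene numbered from the brightest. H2az1 and Slbp lie far left of their control points, H2ac19 lies to the right of its control points, and most other members sit near the floor.

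H3.3, the variant that replaces H3 outside replication, showed near-equal signal on its bright probe sets. The genes H3f3a and H3f3b encode the same protein, and their bright probe sets are annotated to 6 loci each, so they name no single gene. On these 5 shared probe sets the log2 ratios lay between -0.27 and 0.0031, with signals of 1031 to 2263 units after CCR4b RNAi and 1138 to 2721 units in the control. The brightest read 2263 units after CCR4b RNAi and 2721 units in the control, 1.20-fold lower. The probe sets annotated to a single gene were dim. That of H3f3a read 19.7 units after CCR4b RNAi and 16.0 units in the control (log2 ratio 0.31, robust SD of similar genes 0.68). That of H3f3b read 12.4 units after CCR4b RNAi and was below the floor in the control at 6.64 units, at least 1.54-fold higher. For this gene the bound was smaller than the robust SD of genes with similar signal, 0.84, and it dropped under 1.5-fold with each other scaling of the arrays.

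The linker histone variants were dim. H1f10, which encodes the variant H1.10, read 22.4 units after CCR4b RNAi and 29.4 units in the control, with a log2 ratio of -0.39. H1f7, a testis linker histone, read 10.4 units after CCR4b RNAi and 6.37 units in the control, at least 1.29-fold higher. Its other probe set was below the floor on both arrays, at 0.694 units (CCR4b RNAi) and 0.795 units (control). H1f8, the oocyte linker histone, stayed below 1 unit on both arrays, at 0.612 units (CCR4b RNAi) and 0.922 units (control). The H1f7 value is a bound against the floor, and its log2 ratio was 0.71, past 1.5-fold, with the floor at the 25th percentile.

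Of the clustered members, H2ac19 stood out as higher. It encodes a canonical H2A and carries the older symbol Hist2h2aa2. Its brighter probe set read 55.8 units after CCR4b RNAi and 23.6 units in the control, 2.36-fold higher, with a log2 ratio of 1.24. The second probe set read 37.3 units after CCR4b RNAi and 18.7 units in the control, 1.99-fold higher. Genes of signal similar to the brighter one had a robust SD of 0.57, and 97.7% of them had a ratio as low or lower. A near-identical copy lies next to this gene, and the probe set annotated to both copies read 14.8 units after CCR4b RNAi and 12.8 units in the control (log2 ratio 0.20). How the signal divides between the copies is uncertain.

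The 2 clustered H2B genes measured, both with Hist2 older symbols, were at the edge of detection. H2bc21 read 12.7 units after CCR4b RNAi and was below the floor in the control at 4.16 units, at least 1.57-fold higher. Its other probe set stayed below the floor, at 4.90 units (CCR4b RNAi) and 5.05 units (control). H2bc18 read 11.2 units after CCR4b RNAi and 10.6 units in the control, and its log2 ratio of 0.079 changed sign with the scaling of the arrays (lowest value -0.024).

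The clustered linker genes gave mixed readings. H1f2 encodes H1.2, a widely expressed somatic linker histone. It read 20.8 units after CCR4b RNAi and 17.3 units in the control on its brightest probe set, and 16.9 units after CCR4b RNAi and 12.0 units in the control on the next. Those log2 ratios were 0.27 and 0.50. The third probe set went the other way, with 6.97 units after CCR4b RNAi and 13.9 units in the control, at least 1.72-fold lower. H1f6, the testis linker gene of the cluster, read 3.84 units after CCR4b RNAi, below the floor, and 11.8 units in the control, at least 1.47-fold lower. H1f4 was below the floor on both arrays, as were the clustered genes H2bc22, H3c4, H3c7 and H3c11, with values between 0.424 and 7.25 units. Their ratios are not given because neither reading reached the floor.

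Clustered histone genes were also read by probe sets annotated to several genes, which are not members. The brightest, shared by 10 H2A genes that all carry Hist1 older symbols, read 846 units after CCR4b RNAi and 2401 units in the control. That is 2.84-fold lower (log2 ratio -1.51). Of 5 shared H3 probe sets, 3 reached the floor and they did not move alike. The brightest of them, shared by 12 genes, read 11.8 units after CCR4b RNAi and 28.9 units in the control, 2.45-fold lower. One shared by 2 genes read 6.95 units after CCR4b RNAi, below the floor, and 15.0 units in the control, at least 1.86-fold lower. One shared by 8 genes went the other way, with 10.7 units after CCR4b RNAi and 4.94 units, below the floor, in the control, at least 1.33-fold higher. The brightest H4 probe set, shared by 13 genes, read 6.99 units after CCR4b RNAi and 24.9 units in the control, at least 3.09-fold lower. The other H4 probe set that reached the floor read 3.64 units after CCR4b RNAi and 11.0 units in the control, at least 1.36-fold lower. The H2B probe set shared by 11 genes gave 47.1 units after CCR4b RNAi and 46.6 units in the control. The H3 and H4 readings were dim, and a difference between core histones could not be tested. Of 24 such histone probe sets, H3.3 and H2A.Z included, 16 reached the floor, of which 6 were lower by 1.5-fold or more and 0 were higher by that much. Of all measured genes, 14.6% were lower and 11.3% were higher by 1.5-fold or more, and 1 probe set with many loci is not independent of the next.

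Histone genes whose current symbols fall outside the prefixes were read beside the members. H2aw, a clustered H2A gene with the older symbol Hist3h2a, read 112 units after CCR4b RNAi and 47.1 units in the control on its brighter probe set, 2.37-fold higher. Its dimmer probe set read 23.0 units after CCR4b RNAi and 8.99 units in the control, 2.56-fold higher. The H2A genes with Hist2 and Hist3 older symbols were thus higher on their single-gene probe sets. The signal shared by the Hist1 H2A genes was lower, a contrast that could not be tested. The brighter single-gene probe sets of H2ac19 and H2aw have identifiers that mark possible hybridisation to more than 1 transcript. The probe set annotated to both Hist2 H2A copies had a log2 ratio of only 0.20. H2ax, the variant phosphorylated at DNA breaks, whose mRNA exists in both stem-loop and polyadenylated forms, read 115 units after CCR4b RNAi and 121 units in the control. H2aj read 567 units after CCR4b RNAi and 751 units in the control (log2 ratio -0.40). A dimmer H2aj probe set had a log2 ratio of -0.76. Macroh2a1, a macroH2A variant enriched on the inactive X chromosome, read 131 units after CCR4b RNAi and 179 units in the control (log2 ratio -0.44). Macroh2a2 had a log2 ratio of -0.19 and Macroh2a3 of -0.73, from dimmer signals. The other Macroh2a3 probe set gave a bound of -0.035. Cenpa, the centromeric H3 variant, read 166 units after CCR4b RNAi and 414 units in the control, a log2 ratio of -1.32. On brightest probe sets, H2az1 and Cenpa were thus the lowest of the variants. A dim Cenpa probe set went the other way, with 10.1 units after CCR4b RNAi and 7.68 units, below the floor, in the control.

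**Figure D2:**
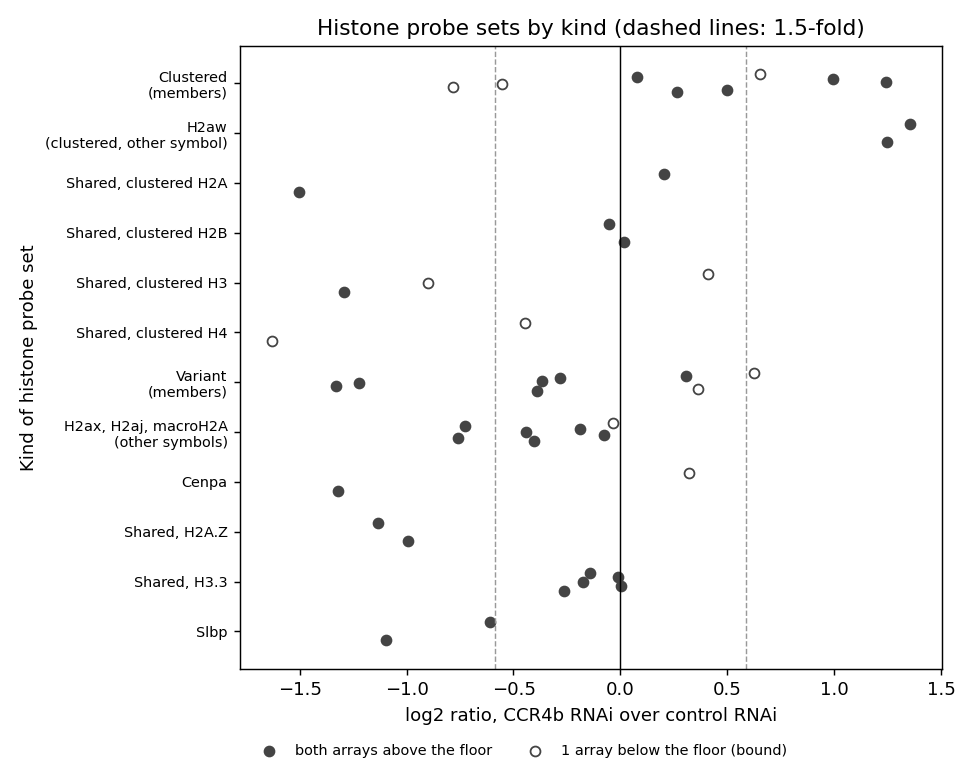
Log2 ratios (CCR4b RNAi over control RNAi) of histone probe sets that reached the floor on at least 1 array, by kind; open points are bounds against the floor and dashed lines mark 1.5-fold. Shared H2A and H4 probe sets include the most negative values, H2ac19 and H2aw lie at the right, and the shared H3.3 probe sets lie near 0.

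As classes, the members were few and split. Of 10 clustered genes, 5 were measured, 2 of them higher by 1.5-fold or more (H2ac19, and H2bc21 as a bound) against 11.3% of all measured genes, and 0 lower by that much against 14.6%. That 0 is not stable, since H1f6 is a bound at 1.47-fold lower, and the count was 1 with each other scaling of the arrays and 4 with the floor at the 25th percentile or with none. Of 7 variant genes, 6 were measured, with H2az1 lower by at least that fold and H3f3b, as a bound, higher. Of all measured genes, 4.48% reached a 2-fold difference downward and 3.74% upward. Among the histone members H2az1 was in the first of these and H2ac19 in the second. The median log2 ratio was 0.27 over the 5 clustered genes and -0.029 over the 6 variants, against -0.070 over all measured genes. The clustered median came to -0.019 when the shared probe sets were added and to -0.24 without probe sets open to several transcripts, so it gives no stable direction. Genes near the floor passed only through the array on which they were high, so these counts describe what was measured and do not stand for all members.

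**Figure D3:**
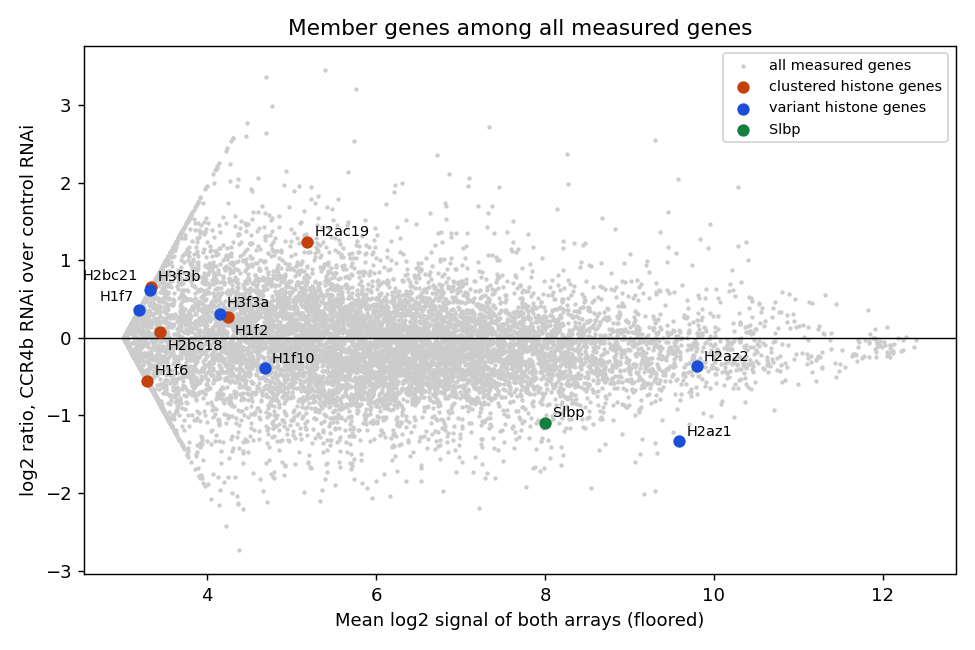
Log2 ratio (CCR4b RNAi over control RNAi) against mean log2 signal for all 11915 measured genes (grey) with the 12 measured members coloured by class. Slbp and H2az1 lie low in the cloud, with 3.53% and 0.839% of genes of like signal as low or lower. H2ac19 lies high in it, with 97.7% as low or lower. H1f7 is a bound that passed only through the CCR4b RNAi array. Its rank of 94.3% is among genes near the floor, where the floor limits the size of ratios. The other members lie closer to the middle of genes of like signal.

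Slbp works with other factors that process or degrade histone mRNA. Of 19 measured genes of this list, 3 were lower by 1.5-fold or more, a share near the 14.6% of all measured genes, and 0 were higher by that much, against 11.3%. The list median log2 ratio was -0.20, against -0.070 over all measured genes. Lsm11, a subunit of the U7 snRNP that cuts the histone pre-mRNA, read 10.7 units after CCR4b RNAi and 29.6 units in the control, 2.76-fold lower. On its dimmer probe set it read 12.6 units after CCR4b RNAi and 9.42 units in the control, a log2 ratio of 0.42 in the other direction. Eri1, the exonuclease that trims the histone stem-loop, read 34.05 units after CCR4b RNAi and 60.6 units in the control on its brighter probe set. On the other it read 39.2 units after CCR4b RNAi and 41.1 units in the control. The third gene of the count, Cstf2, is a cleavage factor and was named after its value was seen. Its brightest probe set read 66.6 units after CCR4b RNAi and 116 units in the control. On its dimmer probe sets the log2 ratios were -0.26 and -0.15, lower by less than 1.5-fold.

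Histone chaperones and exchange factors handle the proteins that these mRNAs encode. Of 22 measured genes, 7 were lower by 1.5-fold or more, against 14.6% of all measured genes, and 1 was higher by that much, against 11.3%. A 2-fold difference downward was reached by 5, against 4.48% of all measured genes, and the list median log2 ratio was -0.34. Hirip3, a histone chaperone that binds HIRA, read 30.3 units after CCR4b RNAi and 126 units in the control, 4.16-fold lower. Asf1b, an H3-H4 chaperone of proliferating cells, read 45.6 units after CCR4b RNAi and 119 units in the control, 2.61-fold lower. Atrx, a chromatin remodeller that works with DAXX in H3.3 deposition, was 1.56-fold higher, at 145 units after CCR4b RNAi and 92.5 units in the control. Anp32e, a chaperone that removes H2A.Z from chromatin, was looked up after the H2az1 values were known. It read 129 units after CCR4b RNAi and 237 units in the control, 1.84-fold lower, and the count of 7 includes it.

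The histone members were also set beside genes of S phase, whose RNAs were lower in the same culture. Of 23 measured S-phase genes, 23 were lower by 1.5-fold or more, against 14.6% of all measured genes, with a median log2 ratio of -1.11 and values between -2.04 and -0.63. Cdc6, which loads the MCM helicase, was the lowest at 10.1 units after CCR4b RNAi and 41.4 units in the control, followed by Pole at 17.8 units after CCR4b RNAi and 70.6 units in the control. Slbp at -1.10 and H2az1 at -1.33 lay inside the range of these genes. The other members above the floor on both arrays lay outside it, namely H2az2, H2bc18, H2ac19, H1f2, H1f10 and H3f3a. Of these, only H2az2 had a bright probe set. Of the 16 shared probe sets that reached the floor, the 6 lower by 1.5-fold or more lay inside the range and the others outside it. Those inside included the bright one of the Hist1 H2A genes, at -1.51, and, as bounds, an H4 one at -1.63 and an H3 one at -0.90. The H2B one shared by 11 genes, at 0.016, lay outside it. This list was chosen with results on these arrays known, and the part of S-phase genes in the histone values was not tested.

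**Figure D4:**
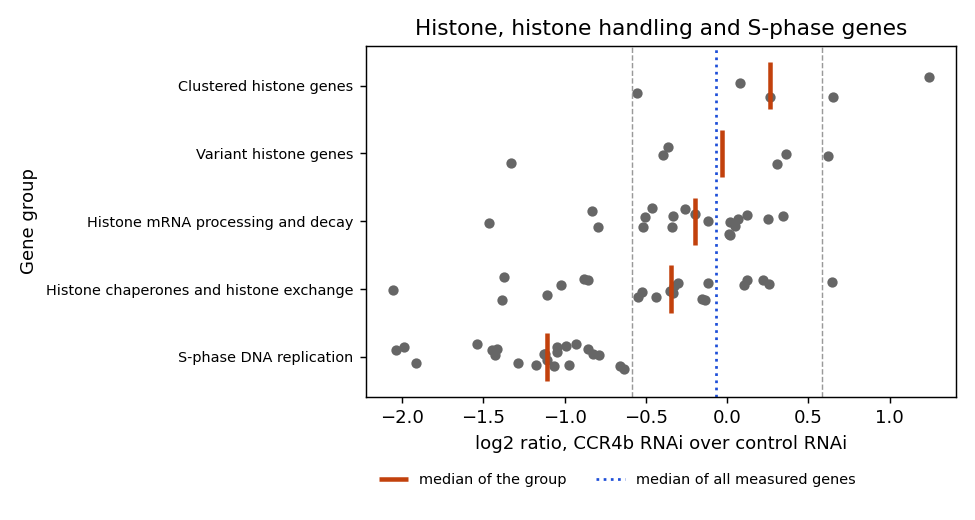
Log2 ratios (CCR4b RNAi over control RNAi) of measured genes in each group, with the group median as a vertical bar, the median of all measured genes dotted and 1.5-fold dashed. S-phase genes all lie left of the 1.5-fold line, while clustered and variant histone genes lie on both sides of 0.

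RNAs without a poly(A) tail gave 2 further readings beside the clustered histones. The 18S ribosomal RNA control probe set at the 5′ end read 378 units after CCR4b RNAi and 825 units in the control (log2 ratio -1.13). The one at the 3′ end read 131 units after CCR4b RNAi and 155 units in the control, with a log2 ratio of -0.25. The middle one read 164 units after CCR4b RNAi and 193 units in the control, with a log2 ratio of -0.24, close to that at the 3′ end. The 3′ over 5′ ratio was 0.346 after CCR4b RNAi and 0.188 in the control, a difference that rests on the 5′ probe set. Malat1, a nuclear RNA that ends in a triple helix in place of a tail, read 1061 units after CCR4b RNAi and 1003 units in the control (log2 ratio 0.080). It was the 1 of 5 such RNAs with a single-gene probe set, and Rmrp, Rpph1, Terc and Rn7sk had none. The part of these differences in the clustered histone readings was not tested. Gapdh, as a polyadenylated reference, had log2 ratios between -0.085 and -0.061 on its 3 control probe sets, and Actb lay between -0.22 and 0.088 on its 5.

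Histone promoters as a family were described from their letters. The RefSeq table held promoters of 16 of the 18 member genes, and 59 clustered histone promoters in all, on the array or not. Of these 59, 83.1% held a CCAAT box within 250 bases upstream, against 33.8% of all promoters. TATAAA was found in 47.5% of the clustered promoters and 12.4% of all promoters. The octamer ATTTGCAT, bound by OCT1 at H2B genes, was found in 22% of clustered promoters and 1.6% of all promoters. TTTGAA, the core of the cell-cycle homology region, was found in 40.7% of clustered promoters and 16% of all promoters, and an E2F form in 13.6% of clustered promoters and 1.86% of all promoters. Of 10 variant histone promoters, 6 held a CCAAT box. Divergent H2A and H2B pairs share parts of their windows, so the clustered promoters are not independent of each other.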

How the data were processed

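RNA of 2 cultures was measured on 1 array each, grouped by the knockdown label. Per the labels, ISOGEN and RNeasy columns were used to isolate the RNA before biotin labelling. The authors deposited linear intensity values per probe set, made in GCOS with a global normalization, per the series design text. No GCOS version, target value, detection call or genome build was stated in these sources.

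The platform annotation names 1 gene for 34958 probe sets and several for 932, and does not list 9211. Values below the 50th percentile of both arrays were raised to it. Log2 ratios set CCR4b RNAi over control RNAi (Python 3.11.15, pandas 2.3.3, statsmodels 0.14.6). A gene was represented by its brightest probe set (mean log2 signal). Robust SDs are scaled median absolute deviations within 10 equal signal classes. The number of arrays limits precision. The procedure was tested on simulated data, with effects planted only in bright genes and noise smaller than the spread of ratios here. That test therefore does not cover members near the floor. Members, lists and classes were chosen with earlier results of these data known. All measured members were named, Slbp on all probe sets, further probe sets of members at least 1.5-fold different on any, up to 2 genes per direction of each other list, measured RNAs without a poly(A) tail, 18S, Cnot6l, Actb and Gapdh. Alternatives were median scaling, quantile and loess normalization (span 0.3), a lower (25th percentile) or higher (75th percentile) floor, none (log2 of signal + 1), the median of a gene's probe sets, and omission of _x_at, _s_at and _a_at probe sets.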

Additional observations from a re-analysis of the deposited data

How the results depend on the processing

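No paired analysis was possible because each group holds 1 array. The cause of each shift below was not tested unless stated. Slbp, H2az1 and H2ac19 kept their direction under every alternative that measured them, with log2 ratios between -1.19 and -0.85, -1.42 and -1.17, and 0.64 and 1.26. The class summaries, of 5 clustered and 6 variant genes, were less stable. The clustered median, 0.27, was -0.0038 with the floor at the 25th percentile, -0.019 with no floor, 0.64 with the floor at the 75th percentile (1 gene left) and -0.24 without _x_at, _s_at and _a_at probe sets. The variant median, -0.029, was 0.014 after loess, -0.85 with the higher floor (2 genes left) and 0.31 without those probe sets, which removed H2az1. The difference of the medians, clustered minus variant, 0.29, was 1.49 with the higher floor and -0.54 without those probe sets. Clustered genes at least 1.5-fold lower numbered 0, but 1 after median scaling, quantile normalization, loess or without those probe sets, and 4 with the lower floor or none. Those at least 1.5-fold higher numbered 2, but 1 with the higher floor or without those probe sets. Variants at least 1.5-fold higher numbered 1, but 0 with each other scaling or the higher floor, and 2 with the lower floor or none. Variants at least 1.5-fold lower numbered 1, but 0 without those probe sets. In settings chosen after seeing the data, adding genes with older histone symbols gave a variant median of -0.37, 2 lower variants and a difference of 0.82. Adding shared probe sets gave a clustered median of -0.019, 4 lower clustered entries and 3 lower variant entries. Dim signal limits most members: 6 of 18 genes were below the floor on both arrays.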
